A study of Homo sapiens with 9 samples.

Results

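The genes of the IκB family, the inhibitors and cofactors that bind NF-κB, were described in HT-29 cells, a line of human colorectal adenocarcinoma with epithelial character. Its members were taken by gene symbol (NFKBIA, NFKBIB, NFKBIE, NFKBIZ, NFKBID and BCL3), each identifier used a single time, and make up 6 of the 62710 gene identifiers in the count table. Poly(A) RNA was sequenced from 9 libraries of wild-type HT-29 cells, 3 of non-stimulated cells, 3 of cells given flagellin at 500 ng/mL and 3 of cells given ADP-heptose at 500 ng/mL, all lysed after 2.5 h. ADP-heptose is a sugar nucleotide of Gram-negative bacteria that is sensed inside the cell through the kinase ALPK1, and flagellin is the protein of the bacterial flagellum, sensed at the cell surface by TLR5. The comparisons asked how each purified bacterial product changed transcription in these colorectal cancer cells. Each group was a single tumour line in culture, and no group held bacteria or an edited gene.

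NF-κB is a dimer of Rel family subunits that IκB proteins hold in the cytoplasm. When a receptor activates the IKK complex, the bound inhibitor is phosphorylated, ubiquitinated and degraded, and the freed dimer enters the nucleus. IκBα (NFKBIA), IκBβ (NFKBIB) and IκBε (NFKBIE) are these cytoplasmic inhibitors. IκBζ (NFKBIZ), IκBNS (NFKBID) and BCL3 share the ankyrin repeats but act in the nucleus, where they bind the NF-κB subunits p50 or p52 on DNA and raise or lower the transcription of selected targets. Several of these genes are themselves targets of NF-κB, and in intestinal epithelium they are known as part of the feedback on bacterial signals.

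All 6 genes are protein-coding in GENCODE release 29 on GRCh38. NFKBIA (ENSG00000100906) lies at chr14:35401511-35404749 on the minus strand and NFKBIE (ENSG00000146232) at chr6:44258166-44265788 on the minus strand. NFKBIZ (ENSG00000144802) lies at chr3:101827991-101861022 on the plus strand. The others are on chromosome 19: NFKBID (ENSG00000167604) at chr19:35887653-35902303 on the minus strand, NFKBIB (ENSG00000104825) at chr19:38899700-38908893 on the plus strand and BCL3 (ENSG00000069399) at chr19:44747705-44760044 on the plus strand. An exon of NFKBIB shares 40 bases with SIRT2 on the opposite strand, and the strand setting of the counting is not given in the sources used here, so reads from those bases cannot be told apart. NFKBID shares 111 exon bases with AD000864.1, which had 0 to 15 counts.

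The RefSeq promoter windows of the members (GRCh38.p14, 250 bases before a transcript start) were searched for the κB consensus on both strands. Windows were at hand for 5 of the 6 genes, all but NFKBIE, and numbered 9. The consensus occurred in 6 of the 9 windows, and in 3498 of all 35116 RefSeq windows of this length (9.96%). By gene it occurred in 4 of the 5. A gene with several windows has more chances of a match, and the share over all genes was not computed. The letters GGGAATTTCC, the form of the consensus in the NFKBIA window, occurred in 3 member windows and in 50 of all windows (0.142%); they were taken from the NFKBIA window, so that window is counted by construction. A window of each gene is printed 5′ to 3′ on the strand of the gene, with the matches in capitals, to show where the motif lies in genes that changed by very different amounts.
NFKBIA, chr14:35404750-35404999, minus strand: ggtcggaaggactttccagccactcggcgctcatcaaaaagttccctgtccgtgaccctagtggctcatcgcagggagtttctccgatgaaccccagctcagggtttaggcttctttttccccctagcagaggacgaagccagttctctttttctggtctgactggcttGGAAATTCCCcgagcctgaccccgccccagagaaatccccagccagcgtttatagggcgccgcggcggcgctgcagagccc
NFKBIB, chr19:38899719-38899968, plus strand: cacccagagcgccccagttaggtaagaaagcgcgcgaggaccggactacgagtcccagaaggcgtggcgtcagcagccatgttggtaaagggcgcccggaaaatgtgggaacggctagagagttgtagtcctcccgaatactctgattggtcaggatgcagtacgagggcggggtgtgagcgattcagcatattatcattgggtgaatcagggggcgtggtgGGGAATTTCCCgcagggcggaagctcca
NFKBIZ, chr3:101827740-101827989, plus strand: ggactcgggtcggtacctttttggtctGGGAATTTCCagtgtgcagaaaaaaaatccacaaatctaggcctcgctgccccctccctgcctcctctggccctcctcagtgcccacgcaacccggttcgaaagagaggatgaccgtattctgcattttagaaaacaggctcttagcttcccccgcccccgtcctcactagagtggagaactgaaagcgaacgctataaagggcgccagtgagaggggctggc
NFKBID, chr19:35899744-35899993, minus strand: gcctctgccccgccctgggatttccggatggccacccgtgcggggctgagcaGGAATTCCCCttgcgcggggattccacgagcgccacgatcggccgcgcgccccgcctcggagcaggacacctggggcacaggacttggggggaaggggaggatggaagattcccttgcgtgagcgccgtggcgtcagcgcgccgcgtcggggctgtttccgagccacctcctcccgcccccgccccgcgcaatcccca
BCL3, chr19:44748458-44748707, plus strand: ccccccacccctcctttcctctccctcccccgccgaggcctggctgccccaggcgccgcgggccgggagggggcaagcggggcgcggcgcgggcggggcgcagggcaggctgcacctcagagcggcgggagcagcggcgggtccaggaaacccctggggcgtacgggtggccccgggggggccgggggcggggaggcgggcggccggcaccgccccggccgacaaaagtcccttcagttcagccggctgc
These letters stood in the windows of 3 members, at bases -81 to -72 from the start of NFKBIA (read on the opposite strand), at -28 to -19 from that of NFKBIB and at -223 to -214 from that of NFKBIZ. In NFKBIB a second match to the consensus on the opposite strand overlapped the first, at -27 to -18. The match in the window of NFKBID lay at -198 to -189. For a gene with several windows, the matching window with the lowest coordinates is printed. Of the windows not printed, 1 of NFKBID held a match at -92 to -83 and 1 of NFKBIZ at -239 to -230, and 1 each of NFKBID and NFKBIB held none. The BCL3 window held no match, which says only that these letters are not in this window. Set against the GENCODE spans above, the printed windows of NFKBIB, NFKBID and BCL3 lie inside the annotated gene, before an internal start. The NFKBIB window without a match lies outside the span, before its first base. Which starts were used in these cells was not tested.

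Depth was 35040844 to 37537705 counts for the non-stimulated libraries, 30770448 to 38304035 for flagellin and 50054773 to 58272772 for ADP-heptose, so the ADP-heptose libraries were the deepest. No member had fewer than 189 counts in any library, and all 6 passed the filter on low counts. ADP-heptose replicate 3 differed most from the libraries of its own group, with an SD of log2 differences over genes of 0.378 and 0.383 against 0.135 to 0.196 for the 7 other pairs within groups. Of the 7 markers of intestinal epithelium all were detected, although the caudal homeobox gene CDX2 had only 17 to 48 counts. The leukocyte and endothelial markers reached at most 13 and 4 counts, and of the fibroblast markers COL1A2 was at 0 and PDGFRB at 6 counts or fewer, while COL1A1 had 437 to 1019. The summed level of the 7 epithelial markers in CPM, counts scaled to the effective size of the library, was 7455 to 7779 in non-stimulated, 7638 to 7918 in flagellin and 8234 to 11522 in ADP-heptose libraries, and that of the 3 fibroblast markers 12.5 to 14.7, 12.6 to 16.1 and 16.9 to 19.1 CPM. These sums moved with the ADP-heptose group, but the markers did not move together. Log2 fold changes after ADP-heptose were 0.45 for KRT18, 0.40 for KRT20 and 0.31 for KRT8. They were 0.06 for EPCAM, 0.01 for CDH1, -0.005 for VIL1 and -0.95 for CDX2. Of these, KRT20 alone had an edgeR adjusted p under 0.05 (9.4e-04), and KRT8, KRT18 and CDX2 passed in some alternative fits. Nearly all of the fibroblast sum was COL1A1, at 0.41. The part of these sums in the results was not tested. In bulk RNA, more cells with a transcript and more transcript per cell cannot be told apart.

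ADP-heptose stimulation resulted in higher RNA of every member of the family. The increase was 15.3-fold for the inhibitor gene NFKBIA, 9.62-fold for BCL3 and 8.99-fold for NFKBIE, and from 1.73-fold to 2.41-fold for NFKBIB, NFKBIZ and NFKBID. All 6 of 6 members were upregulated at an adjusted p under 0.05 in edgeR's quasi-likelihood test with Benjamini-Hochberg adjustment over the 17412 genes tested, beside 7.48% of all genes called higher. Of the 6 members, 4 also passed 2-fold, beside 2.89% of all genes. The median log2 fold change of the 6 was 2.22, against 0.0087 over all genes tested. For each of the 6, every ADP-heptose library exceeded every non-stimulated one, which held for 15.4% of all genes. Without ADP-heptose replicate 3 all 6 were still called, with log2 fold changes from 0.70 for NFKBIB to 3.94 for NFKBIA.

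**Figure D1:**
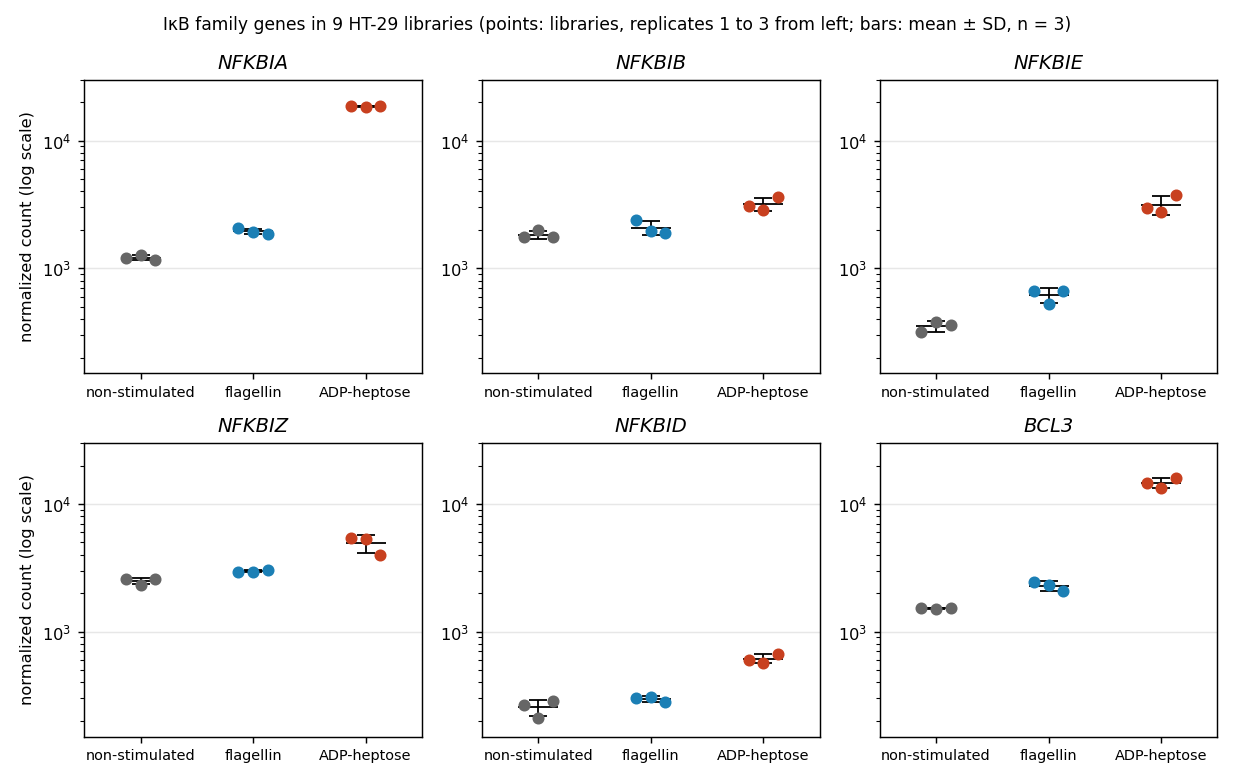
Normalized counts (log scale) of the 6 IκB family genes in each of the 9 libraries, grouped by condition, with points for libraries and bars for the mean ± SD (n = 3). The ADP-heptose points lie above the other groups in every panel, with the widest separation for NFKBIA, BCL3 and NFKBIE, and the flagellin points overlap the non-stimulated ones for NFKBIB and NFKBID.

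Among the cytoplasmic inhibitors, NFKBIA, whose product is rapidly degraded and resynthesised in NF-κB signalling, changed the most. Its normalized counts were 1214, 1262 and 1159 in the non-stimulated libraries, 2056, 1909.7 and 1871 after flagellin, and 18581, 18413 and 18691 after ADP-heptose. The ADP-heptose libraries were high and close to each other, the flagellin libraries lay in between, and no groups overlapped. ADP-heptose raised NFKBIA by a log2 fold change of 3.94 (SE 0.0728, a 15.3-fold increase with a 95% interval of 13.7 to 17.1, edgeR adjusted p 3.7e-12). By fold change NFKBIA was at rank 72 of the 17412 genes.

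NFKBIE, the inhibitor IκBε, started from a low level and rose nearly as far as BCL3. Normalized counts were 316, 378 and 360.02 in non-stimulated cells, 669, 524 and 659.7 after flagellin and 2964, 2761 and 3748 after ADP-heptose. The groups did not overlap, and ADP-heptose replicate 3 was the highest library. The log2 fold change after ADP-heptose was 3.17 (SE 0.140, 8.99-fold, interval 7.27 to 11.1, edgeR adjusted p 1.3e-08), and 3.03 without ADP-heptose replicate 3.

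NFKBIB, whose product IκBβ binds the same dimers as IκBα, had the lowest estimated increase of the family, with an interval that overlapped that of NFKBIZ. Its normalized counts were 1761, 1993 and 1754 in non-stimulated cells, 2372, 1944 and 1905 after flagellin and 3069, 2874 and 3607 after ADP-heptose. The ADP-heptose libraries were above all others, while flagellin and non-stimulated libraries overlapped. The log2 fold change after ADP-heptose was 0.79 (SE 0.109, 1.73-fold, interval 1.47 to 2.04, edgeR adjusted p 3.5e-04), and 0.70 without ADP-heptose replicate 3. The printed window of NFKBIB holds the letters that stand in the NFKBIA window, and its other window holds no match to the consensus. The changes of the genes were 1.73-fold and 15.3-fold, and any part of the motif in them was not tested.

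Among the nuclear members, BCL3, which binds p50 and p52 homodimers, changed most. Its normalized counts were 1528, 1509 and 1535 in non-stimulated cells, 2461, 2306 and 2067 after flagellin, and 14547, 13431 and 16010.3 after ADP-heptose. The 3 groups were fully separated, and the non-stimulated libraries differed very little. ADP-heptose resulted in a log2 fold change of 3.27 (SE 0.0902, 9.62-fold, interval 8.39 to 11.03, edgeR adjusted p 1.7e-10), and 3.20 without ADP-heptose replicate 3.

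NFKBID, the gene of IκBNS, had 268, 212 and 284 normalized counts in non-stimulated cells, 301, 308 and 279 after flagellin and 602, 571 and 673 after ADP-heptose. The ADP-heptose libraries stood above the rest, and the flagellin and non-stimulated libraries overlapped. The log2 fold change after ADP-heptose was 1.27 (SE 0.124, 2.41-fold, interval 2.0 to 2.91, edgeR adjusted p 1.9e-05), and 1.204 without ADP-heptose replicate 3.

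NFKBIZ, the gene of the inducible coactivator IκBζ, rose by just under 2-fold. The libraries gave 2570.3, 2337 and 2562 normalized counts in non-stimulated cells, 2953, 2945 and 3065 after flagellin and 5444, 5278 and 4006 after ADP-heptose. The 3 groups did not overlap, but ADP-heptose replicate 3 was well below the other ADP-heptose libraries. The same library was the highest of its group for NFKBIB, NFKBIE, NFKBID and BCL3 and, by a small margin, for NFKBIA. The log2 fold change of NFKBIZ after ADP-heptose was 0.98 (SE 0.105, 1.97-fold, interval 1.68 to 2.31, edgeR adjusted p 4.2e-05). Without ADP-heptose replicate 3 it was 1.11, past 2-fold. It also came just past 2-fold without non-stimulated replicate 1 (1.003) or 3 (1.001).

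Flagellin resulted in small increases of NFKBIE, NFKBIA and BCL3. Of the 6 members, 3 were called higher and none lower, beside 0.368% of all genes called higher. No member reached 2-fold, beside 0.212% of all genes that were called and did. The median log2 fold change of the members was 0.42, against 0.0048 over all genes. For 4 of the 6 the flagellin libraries lay above all 3 non-stimulated ones, which held for 7.66% of all genes. The non-stimulated libraries served as controls for both stimuli, so the 2 comparisons are not independent.

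By estimate NFKBIE and NFKBIA had the largest flagellin changes of the family, with intervals that overlapped that of BCL3. NFKBIE rose 1.76-fold (interval 1.43 to 2.17, log2 fold change 0.81, edgeR adjusted p 0.0245) and NFKBIA rose 1.61-fold (interval 1.45 to 1.78, log2 fold change 0.68, edgeR adjusted p 2.4e-04). The cofactor BCL3 rose 1.495-fold (interval 1.32 to 1.70, log2 fold change 0.58, edgeR adjusted p 0.00796). The calls differed in how far they rested on single libraries. NFKBIA was called whichever library was left out. NFKBIE was lost without flagellin replicate 1 (adjusted p 0.165), flagellin replicate 3 (0.135) or non-stimulated replicate 1 (0.187), 2 (0.0868) or 3 (0.122). BCL3 was lost without flagellin replicate 1 (adjusted p 0.0629), flagellin replicate 2 (0.0571) or non-stimulated replicate 1 (0.0625), 2 (0.0671) or 3 (0.0610).

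For the other members a flagellin response was not called. The NFKBIZ libraries after flagellin all lay above the non-stimulated ones, with a 1.2-fold difference (interval 1.02 to 1.41, log2 fold change 0.26, edgeR adjusted p 1). In a fit of only the flagellin and non-stimulated libraries the log2 fold change was also 0.26 and passed the test (edgeR adjusted p 0.00709), as it did in the fit without ADP-heptose replicate 3 (adjusted p 0.00235). The log2 difference of NFKBID was 0.22 (95% interval -0.06 to 0.49) and that of NFKBIB was 0.18 (-0.06 to 0.42), each with an edgeR adjusted p of 1. These intervals still allow an increase of 1.41-fold for NFKBID and 1.33-fold for NFKBIB.

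**Figure D2:**
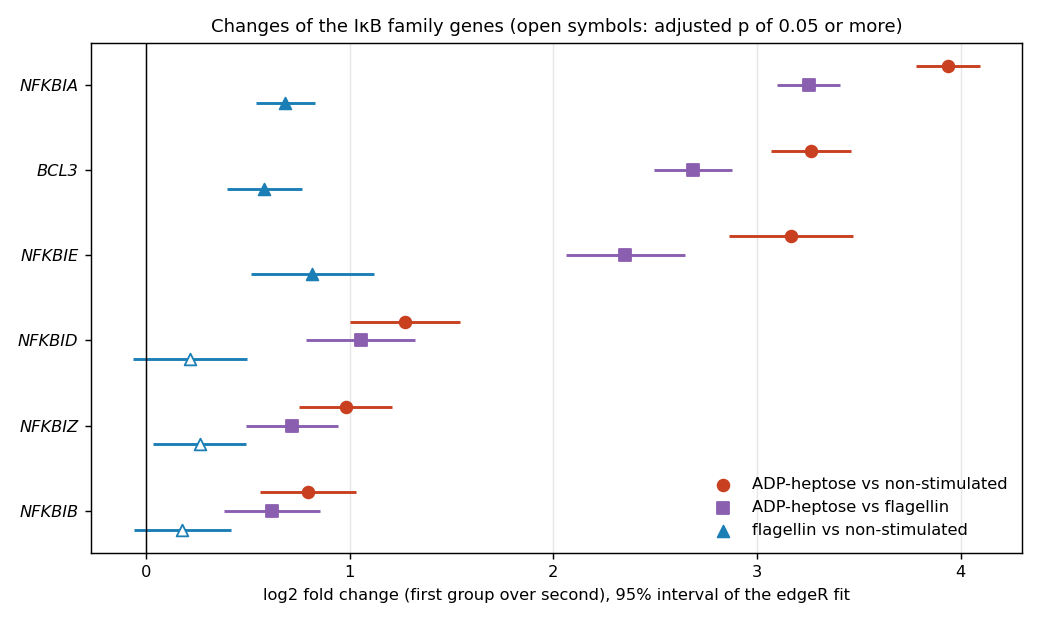
Log2 fold changes of the 6 genes in the 3 comparisons of the edgeR fit, with 95% intervals; circles are ADP-heptose against non-stimulated, squares ADP-heptose against flagellin and triangles flagellin against non-stimulated, and open symbols have an adjusted p of 0.05 or more. NFKBIA, BCL3 and NFKBIE lie at 2.35 to 3.94 in both ADP-heptose comparisons, and the flagellin values of all 6 genes lie between 0.18 and 0.81.

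The direct comparison of the stimuli, at the same mass dose and time, gave higher RNA after ADP-heptose for all 6 of 6 members, beside 5.4% of all genes called higher. The median log2 difference of the members was 1.70, against 0.0065 over all genes. Of the 6, 4 were called and at least 2-fold higher (2.06% of all genes), and for each of the 6 every ADP-heptose library exceeded every flagellin one (14.2% of all genes). The fourth, NFKBID, with a log2 difference of 1.05, came below 2-fold without ADP-heptose replicate 3 (0.995) and with library totals (0.93). Of the inhibitors, NFKBIA was 9.54-fold higher (interval 8.58 to 10.6, edgeR adjusted p 5.3e-11) and NFKBIE 5.11-fold higher (interval 4.17 to 6.26, adjusted p 2.0e-07). The corresponding value for NFKBIB was 1.53-fold (interval 1.30 to 1.81, adjusted p 0.00303). Of the nuclear members, BCL3 was 6.43-fold higher (interval 5.63 to 7.35, edgeR adjusted p 1.2e-09), NFKBID 2.08-fold (1.72 to 2.499, adjusted p 1.2e-04) and NFKBIZ 1.64-fold (1.40 to 1.92, adjusted p 7.2e-04). Without ADP-heptose replicate 3 the log2 differences ran from 0.53 for NFKBIB to 3.26 for NFKBIA, and all 6 were called. The doses were equal by mass and not by number of molecules.

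Levels were compared between the genes as CPM per kilobase of exon, since a longer transcript yields more reads. Without stimulation NFKBIB had the highest level per length at 19.6 (range over libraries 18.7 to 21.3), followed by NFKBIA at 12.7 (12.1 to 13.2), BCL3 at 11.7 (11.6 to 11.8) and NFKBIZ at 10.5 (9.83 to 10.8). NFKBIE at 3.38 (3.03 to 3.64) and NFKBID at 1.98 (1.65 to 2.21) were the lowest, and no neighbours in this order overlapped. With the longest transcript as length, NFKBIE held a mean share of 4.16% of the summed level and NFKBID one of 4.26%. Their libraries then overlapped (3.76% to 4.42% and 3.49% to 4.78%), so they had no clear order. The libraries of NFKBIA (22.9% to 24.4%) and BCL3 (22.3% to 23.2%) overlapped as well. After flagellin the order of the means was the same, but NFKBIB at 22.1 (20.3 to 25.3) overlapped NFKBIA at 20.3 (19.6 to 21.5). After ADP-heptose NFKBIA led at 194 (193 to 195), followed by BCL3 at 112 (103 to 123). NFKBIB at 34.0 (30.7 to 38.5) and NFKBIE at 30.4 (26.5 to 36.0) overlapped, and NFKBIZ at 20.6 (16.8 to 22.9) and NFKBID at 4.78 (4.43 to 5.23) lay below them. With the longest transcript as length, NFKBIB (6.18% of the summed level), NFKBIZ (5.38%) and NFKBIE (5.22%) came in another order after ADP-heptose, and the libraries of NFKBIZ overlapped those of both.

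By these levels NFKBIB led the family in non-stimulated cells and NFKBIA after ADP-heptose. Of the summed per-length level of the 6 genes, NFKBIB held 32.8% ± 1.76 (SD, n = 3) in non-stimulated cells, 27.4% ± 1.56 after flagellin and 8.56% ± 0.638 after ADP-heptose. NFKBIA held 21.2% ± 0.583, 25.2% ± 0.414 and 49.1% ± 1.83, and BCL3 19.5% ± 0.551, 21.6% ± 1.03 and 28.3% ± 1.22. For these 3 genes no groups overlapped. NFKBIZ went from 17.5% ± 1.27 to 15.6% ± 1.22 after flagellin, with overlapping libraries, and to 5.24% ± 1.02 after ADP-heptose. NFKBIE held 5.65% ± 0.447, 7.36% ± 0.891 and 7.64% ± 0.919, with both stimulated groups above the non-stimulated one and overlapping each other. The share of NFKBID was 3.32% ± 0.552, 2.85% ± 0.186 and 1.204% ± 0.049, with the ADP-heptose libraries below the others. Without ADP-heptose replicate 3 the mean shares in that group were 50.02% for NFKBIA, 27.7% for BCL3, 8.20% for NFKBIB and 5.83% for NFKBIZ. The summed level of the 6 genes was 59.8 ± 1.19 CPM per kilobase in non-stimulated cells, 80.7 ± 5.33 after flagellin and 396 ± 17.8 after ADP-heptose. With the length of the longest transcript in place of all exons, the leading share after flagellin passed to NFKBIA (27.9%), ahead of BCL3 (24.98%) and NFKBIB (21.0%). An exact permutation test of 3 against 3 libraries cannot give a two-sided p below 0.1, so these shares are described by their ranges.

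**Figure D3:**
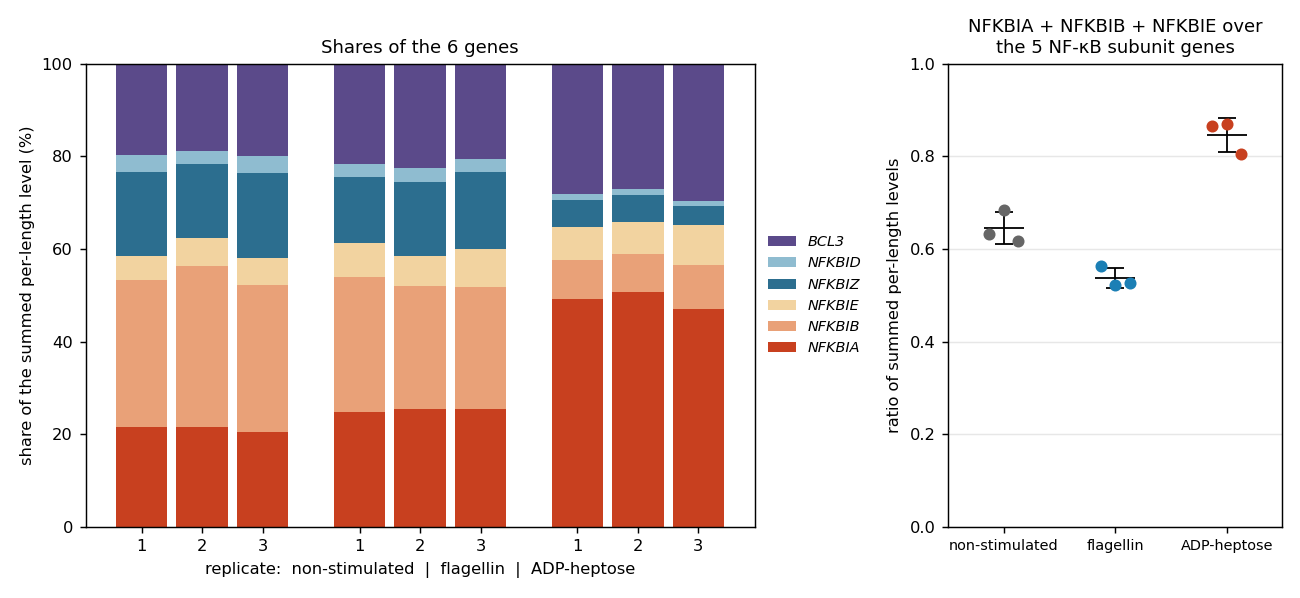
Left, share (%) of each of the 6 genes in their summed per-length level in each of the 9 libraries; right, the ratio of the summed per-length levels of NFKBIA, NFKBIB and NFKBIE to those of the 5 NF-κB subunit genes, with points for libraries and bars for the mean ± SD (n = 3). NFKBIA takes 47.1% to 50.8% of each ADP-heptose library against 20.5% to 21.6% of each non-stimulated one, and the ratio is lowest after flagellin and highest after ADP-heptose.

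The genes of the NF-κB subunits rose as well. All 5 of 5 were called higher after ADP-heptose, beside 7.48% of all genes. The log2 fold changes were 3.24 for NFKB2 (the precursor of p52), 3.12 for RELB, 2.01 for NFKB1 (the precursor of p50), 1.72 for REL and 0.95 for RELA (edgeR adjusted p at most 0.00227). After flagellin 3 of 5 were called higher, beside 0.368% of all genes. These were RELB by 1.09, NFKB2 by 1.08 and NFKB1 by 0.65, while RELA had 0.11 and REL 0.29 with an edgeR adjusted p of 1. The flagellin call of NFKB1 (edgeR adjusted p 0.00661) was lost without flagellin replicate 1 (0.0887) or 2 (0.0505) and without non-stimulated replicate 1 (0.0672) or 2 (0.0671). The summed per-length level of NFKBIA, NFKBIB and NFKBIE divided by that of the 5 subunit genes was 0.633, 0.685 and 0.617 in the non-stimulated libraries, 0.563, 0.523 and 0.527 after flagellin and 0.865, 0.870 and 0.804 after ADP-heptose. The ratio was thus lower in every flagellin library and higher in every ADP-heptose library than in any non-stimulated library. With the longest transcript as length the means were 0.523, 0.462 and 0.849, in the same order, and without ADP-heptose replicate 3 the ADP-heptose mean was 0.867. This is a ratio of RNA levels, and the proteins were not measured in these libraries. NFKB1 and NFKB2 encode precursors, so it is not a ratio of inhibitors to finished subunits.

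For the machinery that removes IκB proteins the RNA differences were small. None of the 3 IKK genes (CHUK, IKBKB and IKBKG) was called after either stimulus. Their log2 differences were -0.10 to 0.26 after ADP-heptose and -0.11 to 0.36 after flagellin. Over all 17412 genes tested, 7.48% were called higher after ADP-heptose and 0.368% after flagellin. At such shares a list of 3 or 6 genes holds few calls or none, so few calls say little about these lists. IKBKG has a near-identical pseudogene, so its counts are uncertain. Without ADP-heptose replicate 3, IKBKB was called higher after ADP-heptose (log2 fold change 0.26, edgeR adjusted p 0.0420). Of 6 genes listed for the SCF-βTrCP ubiquitin ligase, which marks phosphorylated IκB for degradation, 1 was called higher after ADP-heptose and none after flagellin. It was UBE2D3 (log2 fold change 0.25, edgeR adjusted p 0.0264), a ubiquitin-conjugating enzyme and not a part of the ligase itself. The call of UBE2D3 was lost without flagellin replicate 3 (adjusted p 0.0507) or without non-stimulated replicate 1 (0.116), 2 (0.0647) or 3 (0.103). It was also lost with library totals in place of TMM (0.209), with no filter (0.0513), with only the 6 libraries compared (0.0960) and with the replicate number as a block (0.0656). BTRC, a substrate receptor of the ligase, had -0.25 after ADP-heptose with an edgeR adjusted p of 0.0760, and was called lower with library totals (-0.39, adjusted p 0.0181) and in the DESeq2 test (-0.26, 0.0475). The 6 other IκB-binding or IκB-like genes (NKIRAS1, NKIRAS2, NFKBIL1, TONSL, ANKRD42 and COMMD1) had no call after either stimulus in the fit as reported, with log2 differences after ADP-heptose from -0.38 for ANKRD42 to 0.53 for NFKBIL1 (edgeR adjusted p 0.0576). NFKBIL1 was called without ADP-heptose replicate 1 (0.61, adjusted p 0.0395), 2 (0.66, 0.0117) or 3 (0.26, 0.0216), and ANKRD42 without ADP-heptose replicate 2 (-0.52, 0.0409). NFKBIL1 was also called higher in the DESeq2 test (0.52, adjusted p 0.0168) and ANKRD42 lower with library totals (-0.50, 0.0494). With no filter NFKBIL1 (0.51, adjusted p 6.6e-05) and COMMD1 (0.43, 0.0167) were called higher and ANKRD42 lower (-0.38, 0.0392).

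NFKBIZ mRNA is known as a target of the endonuclease Regnase-1 (ZC3H12A), of the Roquin proteins (RC3H1 and RC3H2) and of the decay factor ZFP36. Of these 4 genes, 2 were called higher after ADP-heptose, beside 7.48% of all genes: ZC3H12A (log2 fold change 1.99, edgeR adjusted p 1.3e-09) and ZFP36 (1.97, adjusted p 8.2e-09). ZC3H12A was also called after flagellin, by 0.73 (edgeR adjusted p 1.6e-04), whereas ZFP36 had 0.10 (adjusted p 1). RC3H1 and RC3H2 had -0.11 and -0.04 after ADP-heptose and were not called. Of 6 genes known to need IκBζ, only LCN2, the gene of the iron-binding protein lipocalin 2, was abundant enough to test. LCN2 was called higher after ADP-heptose (log2 fold change 0.59, edgeR adjusted p 0.0370) and had 0.39 after flagellin (adjusted p 1). The ADP-heptose call of LCN2 was lost when any flagellin library (adjusted p 0.0558 to 0.0577) or any non-stimulated library (0.0871 to 0.146) was left out, with library totals (0.0572), with only the 6 libraries compared (0.104) and with the replicate number as a block (0.0630). Its flagellin difference was called without ADP-heptose replicate 3 (0.38, adjusted p 3.4e-05), with only the 6 libraries compared (0.38, 6.9e-05) and with no filter (0.38, 0.0249). IL6 and DEFB4A had 0 counts in every library, and CSF3, CXCL5 and IL36G at most 4, 11 and 6 counts.

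**Figure D4:**
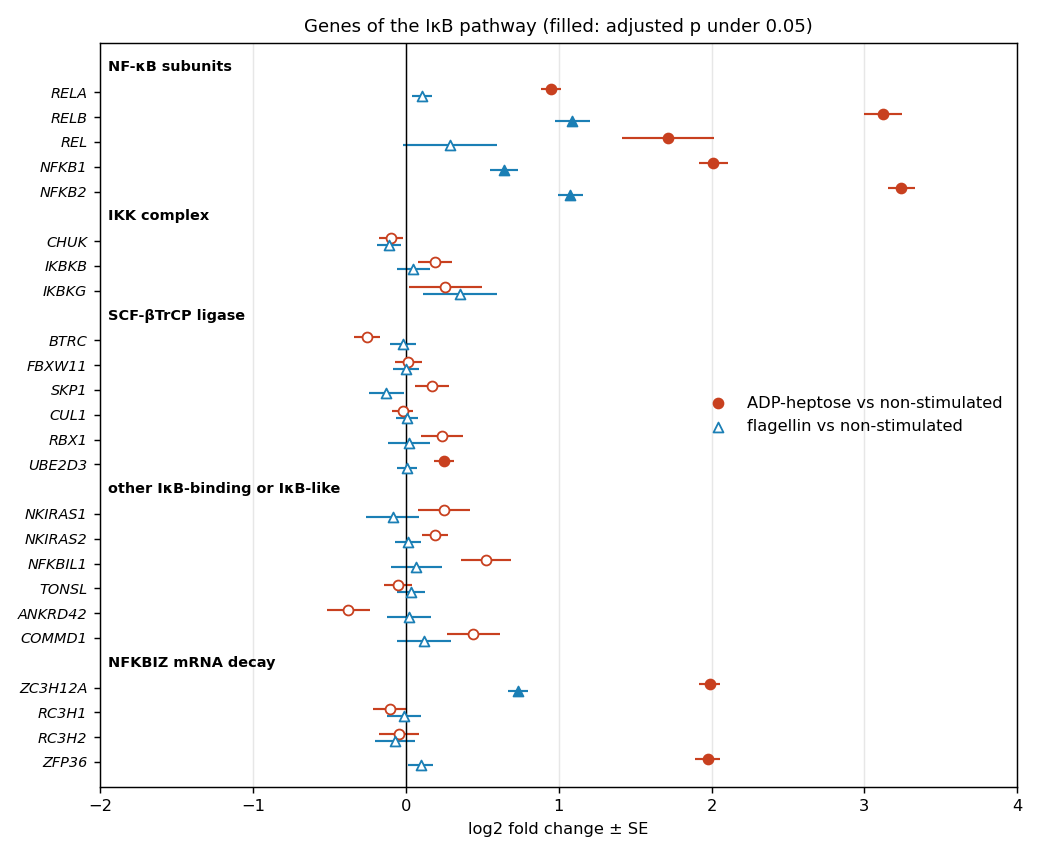
Log2 fold changes ± SE of 24 genes after ADP-heptose (circles) and after flagellin (triangles) against non-stimulated cells. The lists are NF-κB subunits, IKK complex, SCF-βTrCP ligase, other IκB-binding or IκB-like genes, and decay of NFKBIZ mRNA. Filled symbols have an adjusted p under 0.05. The subunit genes and the mRNA decay factors ZC3H12A and ZFP36 lie at 0.95 to 3.24 after ADP-heptose, and the IKK, ligase and other IκB-like genes lie between -0.38 and 0.53.

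The genes whose profile over the 9 libraries was most like that of a member were found by the root mean square (RMS) difference of log2 CPM, centred on the non-stimulated mean, among 12167 other genes; the points share their libraries, and the measure is a description. Nearest to NFKBIA were ATF3, PDGFB and IRF1 (RMS differences 0.197, 0.215 and 0.219, against a median of 2.30 over all genes). Nearest to NFKBIE were RND1, RELB and NFKB2 (0.167, 0.188 and 0.193). BCL3 was most like RND1 (0.161), IER3 (0.190) and NFKBIE itself (0.205). NFKBIB was nearest to MSANTD3, PLEK2 and UPP1 (0.0644 to 0.0927) and NFKBIZ to ST3GAL1, ARRDC3 and NCEH1 (0.0478 to 0.0672). A member that changed little is near many genes, with a median difference of 0.495 for NFKBIB and 0.603 for NFKBIZ.

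The scaling of the libraries changed the split of calls over the whole table but no call of a member. With library totals in place of TMM, the median of all genes after ADP-heptose moved to -0.13 (log2), and the genes called went from 1302 higher and 770 lower to 917 higher and 1886 lower. Against flagellin they went from 940 higher and 481 lower to 708 higher and 1064 lower, at a median of -0.11. All 6 members stayed called higher in both comparisons, and with library totals the log2 fold change after ADP-heptose was 3.80 for NFKBIA and 0.65 for NFKBIB, the ends of the range.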

How the data were processed

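Libraries of poly(A) RNA were sequenced as paired reads of 150 bases, and per the labels the authors aligned them with HISAT2 and deposited raw counts per gene from featureCounts. Versions, genome build, annotation, strand setting and the handling of reads with several positions are not given in the sources used here. The study describes the values of the 3 conditions as coming from 3 independent experiments, and the labels do not say whether a replicate number marks an experiment. The table held 62972 lines for 62710 identifiers, of which 232 were listed more than once and kept a single time. Groups came from the treatment labels, and dose and time from the study's methods.

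Tests on the counts used edgeR 4.0.16 under R 4.3.3 (filterByExpr, TMM, robust quasi-likelihood fit of all 9 libraries, F test), with Benjamini-Hochberg adjustment over 17412 genes and a call at an adjusted p under 0.05. The square root of the common dispersion was 0.109. For normalized counts, each count was divided by its library's effective size and rescaled to the geometric mean size. Per-length levels are CPM divided by the exon union in GENCODE release 29. Profile likeness was sought among genes whose mean log2 CPM reached 1 (prior count 2). The members, the pathway lists and the rule for named genes (the members, the lists and the 3 most similar genes for each member, of which those of NFKBID are not reported here) were chosen with earlier results of these data known. Alternatives were DESeq2 1.42.0 (test and size factors), library totals, no filter or a mean of at least 10 counts, a 2-fold threshold, only the 6 libraries compared, the replicate number as a block, other transcript lengths, and each library left out. The scripts were tested on simulated data. Figures were drawn with matplotlib 3.10.9.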

Additional observations from a re-analysis of the deposited data

How the results depend on the processing

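Over 16 alternatives each, all 96 values of the members after ADP-heptose against non-stimulated cells and all 96 against flagellin kept their direction and their call. After flagellin against non-stimulated cells 84 of 96 did, 10 lost the call, 2 gained it and 0 reversed. The 10 were fits with a library left out, of NFKBIE (log2 fold change 0.74 to 0.87) and BCL3 (0.51 to 0.59). The 2 were NFKBIZ, at 0.26 both with only the 6 libraries compared and without ADP-heptose replicate 3. Over all fits with a library left out, called or not, NFKBIE had 0.74 to 0.91, BCL3 0.51 to 0.64 and NFKBIZ 0.22 to 0.29. Members called after flagellin numbered 3, and 1 to 4 with a library left out (1 without flagellin replicate 1 or non-stimulated replicate 1, 2 or 3). With the threshold of at least 2-fold, 4, 0 and 4 members were called after ADP-heptose, after flagellin and between the stimuli. NFKBIZ passed 2-fold in the first of these without ADP-heptose replicate 3 (log2 fold change 1.11), non-stimulated replicate 1 (1.003) or non-stimulated replicate 3 (1.001). NFKBID fell short of it in the last without ADP-heptose replicate 3 and with library totals. Of all genes, 2072 were called after ADP-heptose (586 at 2-fold, 1317 to 3288 with a library left out), 66 after flagellin (39 at 2-fold, 106 with DESeq2, 124 with no filter, 143 with only the 6 libraries compared, 38 to 171 with a library left out) and 1421 between the stimuli (409 at 2-fold, 912 to 2721 with a library left out). The highest of these numbers came without ADP-heptose replicate 3, and the lowest without non-stimulated replicate 3, flagellin replicate 1 and flagellin replicate 2, respectively. With the length of the longest transcript the RNA ratio of NFKBIA, NFKBIB and NFKBIE to the NF-κB subunit genes was 0.523 without stimulation and 0.462 after flagellin. The cause of these differences was not tested.

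The replicate numbers were not shown to pair the samples: of 9 pairs with the same number in different groups, 2 correlated above 0.1 (range -0.379 to 0.222), and of 18 pairs with different numbers 7 did (-0.378 to 0.430). With the replicate number as a block, 1587, 46 and 1111 genes and 6, 3 and 6 members were called after ADP-heptose, after flagellin and between the stimuli, and no call of a member changed (NFKBIE after flagellin, adjusted p 0.0452; BCL3, 0.0479), while UBE2D3 (0.0656) and LCN2 (0.0630) lost their calls after ADP-heptose. No member was too low to test, while IL6, DEFB4A and 3 other genes known to need IκBζ were too low to test.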
